A study of Mus musculus with 20 samples.

Results

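The genes described here code for 9 proteins that the liver secretes into the blood or that bind such proteins, picked by name from the 48440 genes of a liver count table: the angiopoietin-like factors Angptl4, Angptl6 and Angptl8, the fetuins Ahsg and Fetub, the fibrinogen-like factor Fgl1, the activin subunits Inhbe and Inhba, and follistatin (Fst). Each symbol belonged to 1 row of the table, and all 9 passed the filter on low counts that left 16071 genes for testing. The livers came from 20 female wild-type C57BL/6 mice (C57BL/6J in the study's methods), in 4 groups of 5. The labels give an age of 8 weeks. The study's methods also give 8 weeks for the mice used, and state that they were killed at the end of week 5. The age at collection is not stated. Mice drank water with corticosterone (CORT), the main adrenal glucocorticoid of rodents, or with the ethanol vehicle for 5 weeks. All 20 were also injected intraperitoneally with an antibody, either a monoclonal that neutralizes the acyl-CoA-binding protein ACBP/DBI (αACBP) or an isotype control, so no group was free of injections. Groups are named by antibody and drink, for example αACBP + CORT for neutralized mice given the hormone and Isotype + Vehicle for the controls. The counts give RNA in whole liver, not protein in liver or blood, and in bulk tissue fewer cells of a type and less RNA per cell cannot be told apart.

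Hepatokines are proteins by which the liver signals to other organs. ANGPTL4 and ANGPTL8 act on lipoprotein lipase, the enzyme that releases fatty acids from circulating triglycerides, ANGPTL4 by inhibiting the enzyme directly, and ANGPTL8 rises with feeding and insulin. Activins are dimers of inhibin beta subunits that signal through SMAD proteins, follistatin binds and neutralizes activins, and the beta subunits encoded by Inhbe and its neighbour Inhbc are made chiefly by the liver. Fetuin-A, encoded by Ahsg, and fetuin-B, encoded by Fetub, are related plasma proteins of the cystatin superfamily that have been linked to insulin resistance, and fetuin-B inhibits ovastacin, a protease of the egg. FGL1 is a liver-derived ligand of the immune checkpoint receptor LAG3.

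Inhbe was the gene of the 9 that passed the test, and its gene lies on mouse chromosome 10 (GRCm39 127184726 to 127190280, minus strand), directly beside Inhbc (127190888 to 127206430, same strand). The promoters of these neighbours are shown because they code for related activin subunits and the test with CORT was passed by Inhbe and not by Inhbc. Each window runs from 250 bases before to 50 after the start in RefSeq (GRCm38.p6, minus strand, chr10:127351799-127352098 for Inhbe and chr10:127370499-127370798 for Inhbc), 5′ to 3′, with matches to the motifs searched in capitals.
Inhbe: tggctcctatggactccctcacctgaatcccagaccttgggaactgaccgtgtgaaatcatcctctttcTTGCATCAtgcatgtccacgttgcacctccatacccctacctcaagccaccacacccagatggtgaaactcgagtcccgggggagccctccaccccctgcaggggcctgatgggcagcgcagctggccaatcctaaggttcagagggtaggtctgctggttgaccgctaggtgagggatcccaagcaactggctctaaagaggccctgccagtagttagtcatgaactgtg
Inhbc: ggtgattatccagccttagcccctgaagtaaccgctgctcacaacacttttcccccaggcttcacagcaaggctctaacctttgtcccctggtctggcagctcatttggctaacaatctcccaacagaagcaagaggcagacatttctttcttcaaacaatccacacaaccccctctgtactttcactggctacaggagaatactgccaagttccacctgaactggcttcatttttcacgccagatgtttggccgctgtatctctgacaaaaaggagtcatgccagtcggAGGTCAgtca
The capitals in Inhbe match the C/EBP-ATF element, TGATGNAA read on either strand, at position -181 from the start, and such a match was present in 3.97% of the 32851 promoters searched. The capitals in Inhbc match the nuclear receptor half-site AGGTCA at position 41 after the start, present in 16.3% of promoters. No match to AGAACA, the half-site of the glucocorticoid receptor (18.97% of promoters), or to the E-box CACGTG (7.15%) lay in either window. No promoter window was available for Angptl4, Fst or Fgl1. The promoters of Angptl8 and of Fgf21, a hepatokine outside the 9, also held 1 match to TGATGNAA each, at -130 and -139. AGAACA matched in Ahsg (-55), in 1 of 2 windows of Fetub (-19) and, outside the 9, in Inhbb (34) and 1 of 2 windows of Igfbp2 (-206). The E-box matched in Fgf21 (-50) and in that window of Igfbp2 (-142). These matches describe letters in a short window and are no evidence of binding.

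Depth ran from 14934926 to 20299999 gene counts per liver, and 3 counts, taken as the floor, came to between 0.145 and 0.205 CPM (counts scaled to a common library size, with TMM factors) depending on the liver. The floor covers counting error only, while the intervals given for fold changes come from the edgeR fit and include the spread between livers. Livers of the same group had correlations of log2 CPM between 0.815 and 0.938. The livers αACBP + Vehicle 5 and Isotype + Vehicle 4 had the largest shares of unaligned read pairs (5.75% and 4.84%). On the same basis, 36.6% to 40.4% per liver fell on genes and 42.3% to 45.2% on no feature, and the cause was not tested. Summed markers of hepatocytes lay between 37244 and 137695 CPM, the lowest sum being that of an αACBP + Vehicle liver. The 5 Kupffer cell markers summed to 94.7 to 290 CPM in Isotype + CORT (median 162) against 258 to 504 in Isotype + Vehicle (median 417), 348 to 645 in αACBP + Vehicle (median 468) and 357 to 490 in αACBP + CORT (median 483). The 4 lymphocyte markers had medians of 2.08, 14.98, 14.1 and 4.79 CPM in Isotype + CORT, Isotype + Vehicle, αACBP + Vehicle and αACBP + CORT. Adipocyte marker sums were at most 5.56 CPM, with Lep at 0 in every liver, and exocrine pancreas sums were at most 1.78 CPM. The part of these markers in the values below was not tested.

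Per kilobase of exon, the 9 transcripts spanned more than 3 orders of magnitude in Isotype + Vehicle livers (mean ± SD, n = 5). Ahsg stood highest at 1234 ± 391 CPM per kb. It was followed by Angptl8 (322 ± 180) and Fetub (227 ± 31.6), whose ranges overlapped, and by Fgl1 (117 ± 15.4), which overlapped Angptl8. Angptl6 (46.8 ± 6.76) and Angptl4 (21.3 ± 15.9) also overlapped. Inhbe stood at 2.46 ± 0.67 CPM per kb, above Fst (0.69 ± 0.38) and Inhba (0.32 ± 0.16), which overlapped each other. In Isotype + CORT livers Inhbe reached 11.9 ± 4.35 CPM per kb, with a mean below that of Angptl4 (27.3 ± 7.61) but overlapping values.

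**Figure D1:**
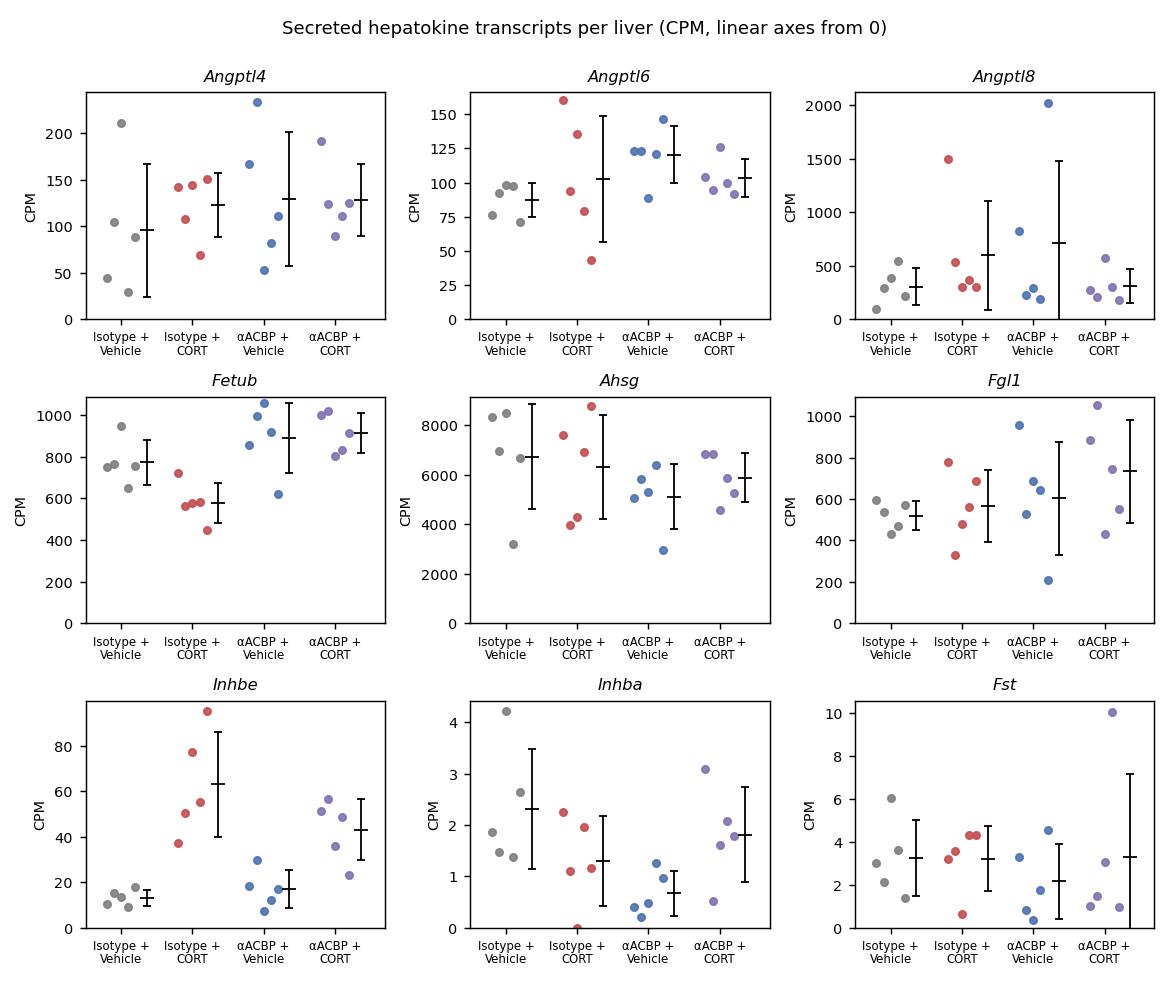
CPM of the 9 hepatokine transcripts in each liver (points, on linear axes from 0) by treatment group, with the mean and SD (n = 5) beside each group in black and the SD bar ending at 0 where it would pass below. Inhbe is higher in all 5 Isotype + CORT livers than in any Isotype + Vehicle liver, Fetub is higher in all 5 αACBP + CORT livers than in any Isotype + CORT liver, and single high livers stand out for Angptl8.

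CORT raised Inhbe, the gene of the inhibin beta E subunit, in mice given the isotype antibody, and none of the other 8 genes passed the test in that comparison. Inhbe stood at 10.3, 15.04, 13.4, 8.88 and 17.8 CPM in Isotype + Vehicle livers 1 to 5. In Isotype + CORT it stood at 37.0, 50.6, 77.2, 55.3 and 95.5 CPM. Every CORT liver was above every vehicle liver, a separation in this direction that 2.02% of tested genes had. The fitted fold change was 4.82 (95% interval 3.04 to 7.65; log2 fold change 2.27, SE 0.32; edgeR adjusted p = 0.000431), which ranked 12 of 16071 by p. Calls required both an adjusted p no greater than 0.05 and a log2 fold change of at least 1 in either direction, which 1.94% of tested genes met in this comparison, and 0.51% met it by being higher. The median log2 fold change of the 9 genes was 0.13, against 0.00 over all genes tested. Among the 9, 2 had an unadjusted p of 0.05 or less (Inhbe and Fetub), a share to be read beside 15.6% of all genes.

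In the presence of αACBP the Inhbe values with CORT did not pass the test. Inhbe stood at 18.1, 29.9, 7.36, 12.2 and 17.1 CPM in αACBP + Vehicle and at 51.4, 56.4, 35.97, 48.8 and 23.0 CPM in αACBP + CORT. Liver 5 of αACBP + CORT lay below liver 2 of αACBP + Vehicle, so these groups overlapped. The log2 fold change of CORT under αACBP was 1.35 (SE 0.31, edgeR adjusted p = 0.0605), and 0 of the 9 genes were called in that comparison, where 0.212% of tested genes were. DESeq2's Wald test called Inhbe here (adjusted p = 0.00482), and leaving out Isotype + CORT liver 5, αACBP + Vehicle liver 2 or αACBP + CORT liver 5 also let it pass (edgeR adjusted p 0.00900 to 0.0416). Inhbe was the 1 member with an unadjusted p of 0.05 or less, which 12.7% of genes had. Against the Isotype + Vehicle livers the doubly treated livers were higher without overlap, by a log2 fold change of 1.72 (SE 0.32, edgeR adjusted p = 0.0320). Here 0.0684% of tested genes were called, 0.0373% were called as higher, 7.59% had an unadjusted p of 0.05 or less, and 1.85% had groups apart in this direction. The call was lost when any 1 of 9 livers was left out, namely each Isotype + Vehicle liver or αACBP + CORT livers 1 to 4, with adjusted p from 0.0538 to 0.108.

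With αACBP under CORT Inhbe did not pass the test. The difference between αACBP + CORT and Isotype + CORT was a log2 fold change of -0.55 (95% interval -1.18 to 0.08, edgeR adjusted p = 0.501), so both no change and a fall by more than 1 remain inside the interval. Under vehicle the antibody difference was 0.37 (edgeR adjusted p = 0.568), and 0.06 without αACBP + Vehicle liver 2. The interaction, which asks whether the CORT response differed with the antibody, was -0.92 (SE 0.44, unadjusted p = 0.0457, edgeR adjusted p = 0.457), or -0.61 without that liver, and 0 of the 9 members were called for it by edgeR or DESeq2, against 0.143% of tested genes. Inhbe and Angptl8 were the 2 with an unadjusted p of 0.05 or less, which 10.6% of genes had. These comparisons share their groups of livers and are not independent of each other.

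The neighbouring gene Inhbc stood higher than Inhbe on the scale of CPM per kb, at 14.6 in Isotype + Vehicle and 21.5 in Isotype + CORT. Its CORT log2 fold change under isotype was 0.55 (edgeR adjusted p = 0.415), with overlapping groups at 33.5 to 67.6 and 45.5 to 101 CPM. The difference between the responses of the neighbours was not tested, and 30.0% of Inhbc exon bases lay opposite exons of Gm47200 and Gm66251, against 3.84% for Inhbe (Gm66251). Inhbb, the beta B subunit of activin B, was low at 0.662, 0.367, 0.913, 1.00 and 1.32 CPM in Isotype + Vehicle and 3.21, 3.15, 1.07, 1.43 and 12.04 CPM in Isotype + CORT, with 1 high liver. Its log2 fold change was 2.28 with an edgeR adjusted p of 0.200, and 1.37 without Isotype + CORT liver 5. Across 16 further genes of the activin and follistatin system, from subunits to receptors and SMADs, 15 were tested and 0 were called by edgeR or DESeq2 in any of the 6 comparisons, with 1 or 2 at an unadjusted p of 0.05 or less in each, against 7.59% to 20.6% of all genes by comparison. Their median log2 fold change with CORT under isotype was -0.02.

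Inhba, the beta A subunit of activin A, and Fst, which neutralizes it, had the lowest levels of the 9 and varied widely within groups. Inhba stood at 1.87, 1.47, 4.21, 1.38 and 2.64 CPM in Isotype + Vehicle and at 2.26, 1.10, 0, 1.95 and 1.16 CPM in Isotype + CORT. It was lower in αACBP + Vehicle, at 0.391, 0.214, 0.482, 1.27 and 0.965 CPM, or 4 to 23 counts per liver, and ran from 0.515 to 3.09 CPM in αACBP + CORT. The αACBP + Vehicle livers all lay below the Isotype + Vehicle livers, a separation in this direction that 3.63% of tested genes had. The log2 fold change was -1.79 (SE 0.86, unadjusted p = 0.0462, edgeR adjusted p = 0.233), so the gene was not called. In this comparison edgeR and DESeq2 each called 0 of the 9 members, edgeR called 1.3% of tested genes, and the 2 members with an unadjusted p of 0.05 or less (Inhba and Angptl6) stand beside 20.6% of all genes. Fst had 0.362 to 10.05 CPM over the 20 livers and overlapped between all groups. With CORT under isotype the log2 fold changes were -0.84 for Inhba (edgeR adjusted p = 0.735) and -0.02 for Fst (edgeR adjusted p = 0.996). With αACBP under CORT they were 0.49 for Inhba (edgeR adjusted p = 0.907) and 0.05 for Fst (edgeR adjusted p = 0.991), and neither gene was called.

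**Figure D2:**
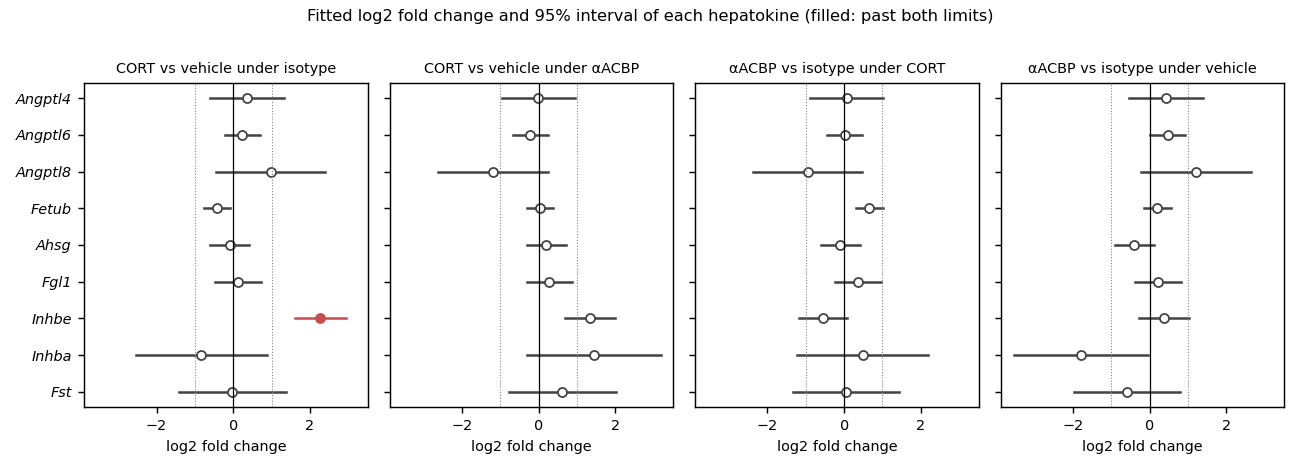
Fitted log2 fold change (point) and 95% interval (line) of each hepatokine in 4 comparisons, with filled red points for genes past both limits and dotted lines at a log2 fold change of 1 in either direction. Inhbe with CORT under isotype is the gene marked as called, and the intervals of Angptl8, Inhba and Fst are the widest.

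Fetub, the gene of fetuin-B, came nearest of the 9 to the test with the antibody under CORT, without passing it. It stood at 749, 764, 945, 648 and 757 CPM in Isotype + Vehicle and at 719, 565, 580, 583 and 449 CPM in Isotype + CORT. Under αACBP it stood at 858, 995, 1057, 916 and 619 CPM with vehicle and at 1000, 1019, 802, 831 and 915 CPM with CORT. All 5 αACBP + CORT livers lay above all 5 Isotype + CORT livers, a separation in this direction that 1.91% of tested genes had. The fold change was 1.58 (95% interval 1.24 to 2.00; log2 fold change 0.66, SE 0.17; edgeR adjusted p = 0.0517). This is under the fold limit at any p. In the comparison 0 of the 9 genes were called by edgeR or DESeq2, against 0.597% of tested genes by edgeR, the median log2 fold change of the 9 was 0.05 against 0.01 over all genes, and Fetub was the 1 member with an unadjusted p of 0.05 or less, which 12.5% of genes had. The adjusted p fell under 0.05 in 4 alternatives, at 0.0485 with DESeq2's size factors, 0.00218 with DESeq2's Wald test, 0.0374 with a minimum of 10 counts and 0.0124 without the 2 livers with the most unaligned pairs. It reached 0.117 in the others, and lay between 0.0178 and 0.121 with 1 liver left out.

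With CORT under isotype Fetub had a log2 fold change of -0.42 (SE 0.17, edgeR adjusted p = 0.195), in overlapping groups. The interaction was 0.45 (SE 0.24, edgeR adjusted p = 0.522). Of the exon bases of Fetub, 27.6% lie opposite exons of the predicted gene Gm30611, and the strand setting of the counting was not given in the sources used here. Ahsg lies beside Fetub on chromosome 16. It had means of 6729 ± 2132 CPM in Isotype + Vehicle, 6309 ± 2097 in Isotype + CORT, 5115 ± 1305 in αACBP + Vehicle and 5879 ± 987 in αACBP + CORT (SD, n = 5). All ranges overlapped, and log2 fold changes were -0.09 with CORT under isotype (edgeR adjusted p = 0.927) and -0.10 with αACBP under CORT (edgeR adjusted p = 0.948). Their 95% intervals ran from -0.61 to 0.42 and from -0.61 to 0.41. The difference between Fetub and Ahsg was not tested. Of 8 cystatin relatives and fetuin partners, among them Hrg, Kng1 and the insulin receptor Insr, 6 were tested and 0 were called by edgeR or DESeq2 in any comparison, with 0 to 2 at an unadjusted p of 0.05 or less, against 7.59% to 20.6% of all genes by comparison.

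The 3 angiopoietin-like genes gave no call in any comparison, and Angptl8 varied by up to 10.5 times between livers of the same group. Angptl8 stood at 95.2, 292, 381, 545 and 213 CPM in Isotype + Vehicle and at 1497, 534, 297, 369 and 304 CPM in Isotype + CORT. Under αACBP it stood at 821, 226, 294, 192 and 2019 CPM with vehicle and at 277, 206, 576, 305 and 183 CPM with CORT. The highest values belonged to Isotype + CORT liver 1 and αACBP + Vehicle liver 5, the latter group being the one with that 10.5-fold range. αACBP + Vehicle liver 5 also had the largest share of unaligned pairs (5.75%) and the lowest median correlation with its group (0.821). It held the lowest Fetub, Ahsg and Fgl1 values of its group and, besides Angptl8, the highest Angptl6 (147 CPM) and Fst (4.53 CPM). Its TMM factor of 1.29 was the largest of the 20 livers, and the part of library quality in these values was not tested. The log2 fold change of Angptl8 with CORT under isotype was 0.97 (edgeR adjusted p = 0.570) and fell to 0.30 without Isotype + CORT liver 1. With αACBP under CORT it was -0.96 (edgeR adjusted p = 0.658), and -0.28 without that same liver.

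The same dependence on single livers held for Angptl8 in the other comparisons. CORT under αACBP gave a log2 fold change of -1.20 (edgeR adjusted p = 0.495), which became -0.31 without αACBP + Vehicle liver 5. With αACBP under vehicle the log2 fold change was 1.22 (edgeR adjusted p = 0.335) with that liver and 0.32 without it. The interaction of -2.17 had an unadjusted p of 0.0372 and an edgeR adjusted p of 0.423. Without αACBP + Vehicle liver 5 the interaction was -1.26. Angptl8 lies within the gene Dock6 on the other strand, and none of its exon bases overlap an exon of another gene.

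Angptl4, whose product inhibits lipoprotein lipase, and Angptl6, a secreted factor linked to energy expenditure, had levels of the same order in the 4 groups. Angptl4 stood at 44.8, 104, 211, 29.0 and 88.1 CPM in Isotype + Vehicle, at 142, 108, 144, 69.4 and 150 CPM in Isotype + CORT and at 192, 124, 89.0, 111 and 125 CPM in αACBP + CORT. Its vehicle range enclosed all 5 Isotype + CORT values. The log2 fold changes were 0.36 with CORT under isotype (95% interval -0.60 to 1.32, edgeR adjusted p = 0.815) and 0.06 with αACBP under CORT (95% interval -0.90 to 1.02, edgeR adjusted p = 0.986). The first was 0.13 without Isotype + Vehicle liver 4 and 0.87 without Isotype + Vehicle liver 3. Angptl6 stood at 76.6, 92.1, 98.2, 97.5 and 70.9 CPM in Isotype + Vehicle and at 160, 94.0, 136, 79.1 and 43.7 CPM in Isotype + CORT, where it ranged more widely. The log2 fold changes of Angptl6 were 0.24 with CORT under isotype (edgeR adjusted p = 0.717), 0.01 with αACBP under CORT (edgeR adjusted p = 0.993) and 0.47 with αACBP under vehicle (unadjusted p = 0.0462, edgeR adjusted p = 0.233). The first was 0.02 without Isotype + CORT liver 1 and 0.43 without Isotype + CORT liver 5. The last was 0.38 without αACBP + Vehicle liver 5. The exons of Angptl6 are opposite those of Shfl over 14.3% of their length.

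Fgl1 was not called in any comparison. It had means of 520 ± 68.8 CPM in Isotype + Vehicle, 567 ± 175 in Isotype + CORT, 603 ± 272 in αACBP + Vehicle and 733 ± 250 in αACBP + CORT (SD, n = 5). The groups overlapped, with livers between 207 and 1052 CPM. The log2 fold changes were 0.13 with CORT under isotype (95% interval -0.47 to 0.72, edgeR adjusted p = 0.914) and 0.37 with αACBP under CORT (95% interval -0.23 to 0.97, edgeR adjusted p = 0.697). Of 6 relatives and partners of FGL1, including the fibrinogen chains Fga, Fgb and Fgg and the receptor gene Lag3, 0 were called by edgeR or DESeq2 in any comparison, with 0 to 3 at an unadjusted p of 0.05 or less. There were 3 with αACBP under vehicle, against 20.6% of all genes, where 5 of the 6 had a negative fold change (median -0.74). There were also 3 with CORT under αACBP, against 12.7% of all genes, where 5 of the 6 had a positive one (median 0.62). These 2 comparisons share the αACBP + Vehicle livers. Fgg had means of 2181 CPM in Isotype + Vehicle, 1147 in αACBP + Vehicle and 2011 in αACBP + CORT.

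Further genes of the angiopoietin-like family and of the lipoprotein lipase system were examined beside the 3 members. Of 14 such genes, 1 was called with CORT under isotype, and 4 had an adjusted p of 0.05 or less without the fold limit, against 3.2% of all genes by that rule. The called gene was Angptl2, at 8.63 to 13.9 CPM in Isotype + Vehicle and 3.00 to 7.60 CPM in Isotype + CORT, which fell by 1.05 on the log2 scale (SE 0.29, edgeR adjusted p = 0.0418), a call lost without any 1 of 8 livers (Isotype + Vehicle 1 to 4, Isotype + CORT 1, 3 or 4, αACBP + CORT 4; adjusted p 0.0501 to 0.106). The others were Lpl (lipoprotein lipase, log2 fold change -0.90), Apoc3 (an inhibitor of the lipase, 0.80) and Pcsk6 (a protease that can cleave angiopoietin-like factors, 0.66), with edgeR adjusted p of 0.0278, 0.0239 and 0.0417. With 1 liver left out these rose to as much as 0.106 for Lpl (without Isotype + Vehicle liver 5), 0.0779 for Apoc3 (without Isotype + CORT liver 2) and 0.149 for Pcsk6 (without Isotype + CORT liver 5), and Lpl was past both limits without Isotype + CORT liver 3 (-1.01). The median log2 fold change of the 14 was 0.04. With αACBP under CORT edgeR and DESeq2 called 0 of the 14, of which 6 had an unadjusted p of 0.05 or less, against 12.5% of all genes, and the median was 0.08.

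Angptl7 was detected at 0.507 to 1.00 CPM in all 5 Isotype + Vehicle livers and at 0 counts in all 5 Isotype + CORT livers, at levels near the floor, and was not called by edgeR (adjusted p = 0.0878) but was by DESeq2. It was also low without CORT under αACBP, at 0 to 0.603 CPM (median 0). In αACBP + CORT it ran from 0 to 0.671 CPM (median 0.118). It is named because of those values.

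**Figure D3:**
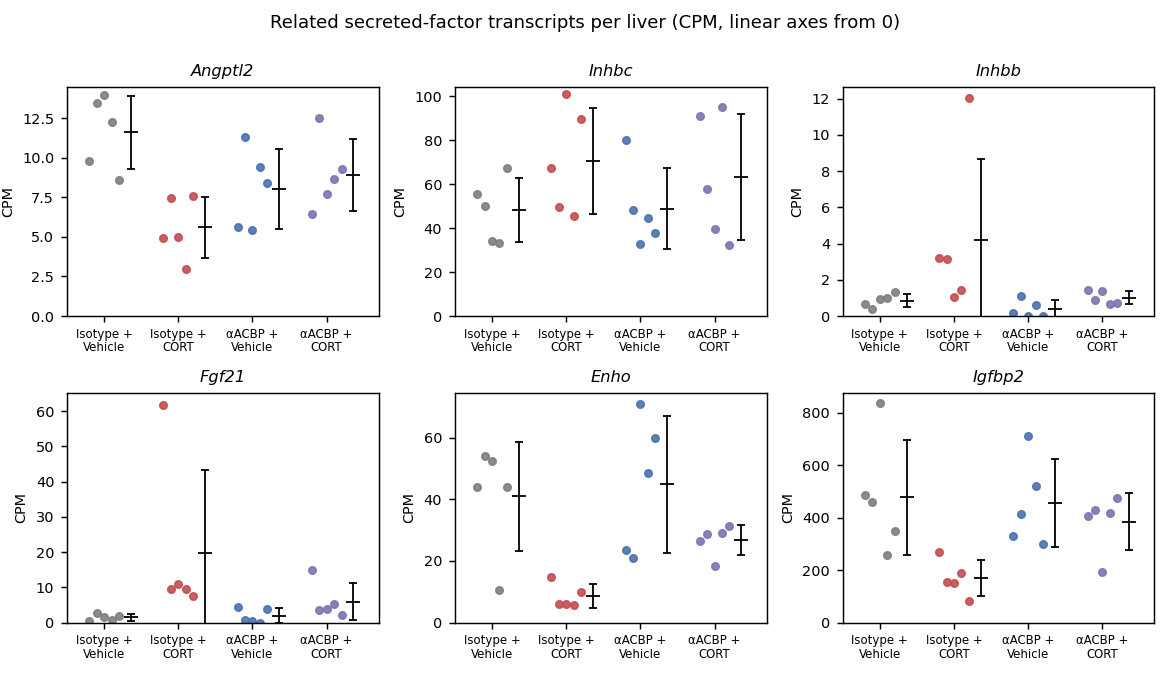
CPM per liver (points, linear axes from 0) of 6 genes related to the hepatokines by family or by being secreted, with the group mean and SD (n = 5) in black and the SD bar ending at 0 where it would pass below. Fgf21 and Inhbb have 1 high Isotype + CORT liver each, and Enho and Igfbp2 have their lowest means in Isotype + CORT.

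Among 15 further secreted hepatokine genes, 14 were tested and 3 were called with CORT under isotype, against 1.94% of all genes. Fgf21, a hepatokine of fasting and stress, stood at 0.481 to 2.75 CPM in Isotype + Vehicle and at 61.8, 9.40, 11.05, 9.45 and 7.66 CPM in Isotype + CORT, all above the vehicle livers. It rose by a log2 fold change of 3.77 (SE 0.95, edgeR adjusted p = 0.0374), or 2.69 without Isotype + CORT liver 1, and the call was lost without that liver, without any Isotype + Vehicle liver or without αACBP + CORT liver 4 (adjusted p 0.0517 to 0.0957). Enho, the gene of adropin, fell by 2.27 (SE 0.41, edgeR adjusted p = 0.00385), from 10.5 to 54.0 CPM in vehicle livers to 5.73 to 14.8 CPM. Of the exon bases of Enho, 41.9% lie opposite exons of Dnai1 and Gm12406. Igfbp2, which binds insulin-like growth factors, was 2.83-fold lower (SE 0.32 on the log2 scale, edgeR adjusted p = 0.0115).

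With αACBP under CORT, 0 of these 14 passed both limits in edgeR and 5 had an unadjusted p of 0.05 or less, against 12.5% of all genes. Fgf21 had means of 19.9 CPM in Isotype + CORT and 5.92 in αACBP + CORT, and neither edgeR nor DESeq2 called it. DESeq2's Wald test gave it a log2 fold change of -1.77 (adjusted p = 0.344), and the edgeR value was -0.67 without Isotype + CORT liver 1. Enho (log2 fold change 1.65, edgeR adjusted p = 0.0538) and Igfbp2 (1.18, edgeR adjusted p = 0.0785) stood higher in αACBP + CORT than in Isotype + CORT. DESeq2 called both, and edgeR called Enho without Isotype + Vehicle liver 4, Isotype + CORT liver 1 or αACBP + Vehicle liver 1, 2 or 3 (adjusted p 0.00780 to 0.0466) and Igfbp2 without Isotype + Vehicle liver 3 (0.0486). Manf, a secreted protein of the endoplasmic reticulum, had an adjusted p under 0.05 with αACBP both under CORT (log2 fold change -0.96, edgeR adjusted p = 0.0449) and under vehicle (-0.93, edgeR adjusted p = 0.0248), short of the fold limit each time, where 0.958% and 5.14% of genes had such an adjusted p. With 1 liver left out its adjusted p ran up to 0.153 under CORT (without αACBP + CORT liver 5) and up to 0.0746 under vehicle (without Isotype + Vehicle liver 5). It was past both limits under CORT without Isotype + CORT liver 2 or 3 or αACBP + CORT liver 4, and under vehicle without Isotype + Vehicle liver 3 or αACBP + Vehicle liver 4. Of the exon bases of Manf, 32.6% overlap exons of Rbm15b on the same strand, and 10.3% lie opposite exons of 4930524O07Rik and Dcaf1. The counting kept non-unique features, and the part of reads from these genes in the Manf values was not tested.

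Lists of hormone and nutrient targets give the setting in which the hepatokines were measured. Of 8 glucocorticoid-induced genes, 1 was called with CORT under isotype: Fkbp5, a co-chaperone of the glucocorticoid receptor, with a log2 fold change of 1.70 (SE 0.26, edgeR adjusted p = 0.000722), while the median of the 8 was -0.32. Fkbp5 had means of 39.3 CPM in Isotype + Vehicle and 127.8 in Isotype + CORT, but 62.9 in αACBP + Vehicle and 76.7 in αACBP + CORT. With CORT under αACBP edgeR called 0 of the 8 (median -0.21), and DESeq2 called Per1, with means of 114 CPM in αACBP + Vehicle and 23.2 in αACBP + CORT. For the interaction edgeR called 0 of the 8 and DESeq2 called Fkbp5. Of 10 targets of the fatty acid receptor PPARα, of which Angptl4 is another, 3 were called higher with CORT under isotype. They were Cyp4a10 (2.14), Cyp4a14 (2.24) and Vnn1 (2.08), with edgeR adjusted p of 0.000294, 0.0136 and 0.00392, where 0.51% of all genes were called higher. All 10 had a positive fold change, with a median of 0.80. With αACBP under CORT all 10 had a negative one, with a median of -0.70, and Cyp4a10 was called (-1.33, edgeR adjusted p = 0.0230), except without Isotype + CORT liver 1 or 5 or αACBP + CORT liver 2, 3, 4 or 5 (adjusted p 0.0572 to 0.0823). These comparisons share the Isotype + CORT livers. With CORT under αACBP all 10 also had a positive fold change, with a median of 1.19. There edgeR called 0 of the 10, and DESeq2 called Cyp4a10, Cyp4a14, Plin2 and Vnn1. With αACBP under vehicle 7 of the 10 had a negative fold change, with a median of -0.42. For the interaction 0 of the 10 were called by edgeR or DESeq2. Angptl4, as given above, had log2 fold changes of 0.36 with CORT under isotype and 0.06 with αACBP under CORT. Of 10 lipogenic genes that insulin and carbohydrate induce, as they do Angptl8, 1 was called lower with CORT under isotype, Pnpla3 (-3.27, edgeR adjusted p = 0.0225), and the median was -0.82. In that comparison edgeR called 1.94% of all genes in either direction. The edgeR call of Pnpla3 was lost without Isotype + Vehicle liver 4 or Isotype + CORT liver 2, 4 or 5 (adjusted p 0.0533 to 0.0584). DESeq2 also called Elovl6 and Scd1 there, and Acot1 of the PPARα targets. Ehhadh was called with αACBP under vehicle (-1.04, edgeR adjusted p = 0.0114), and Acly was called in αACBP + CORT against Isotype + Vehicle (-1.18, edgeR adjusted p = 0.0320). The first fell short of the fold limit without Isotype + Vehicle liver 1 (-0.93) or αACBP + Vehicle liver 5 (-0.98), and the second was lost without any Isotype + Vehicle liver or αACBP + CORT livers 1 to 4 (adjusted p 0.0538 to 0.123). DESeq2 also called Pdk4 and Pnpla3 with αACBP under vehicle. In αACBP + CORT against Isotype + Vehicle it also called Elovl6, Pnpla3, Scd1 and Vnn1.

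**Figure D4:**
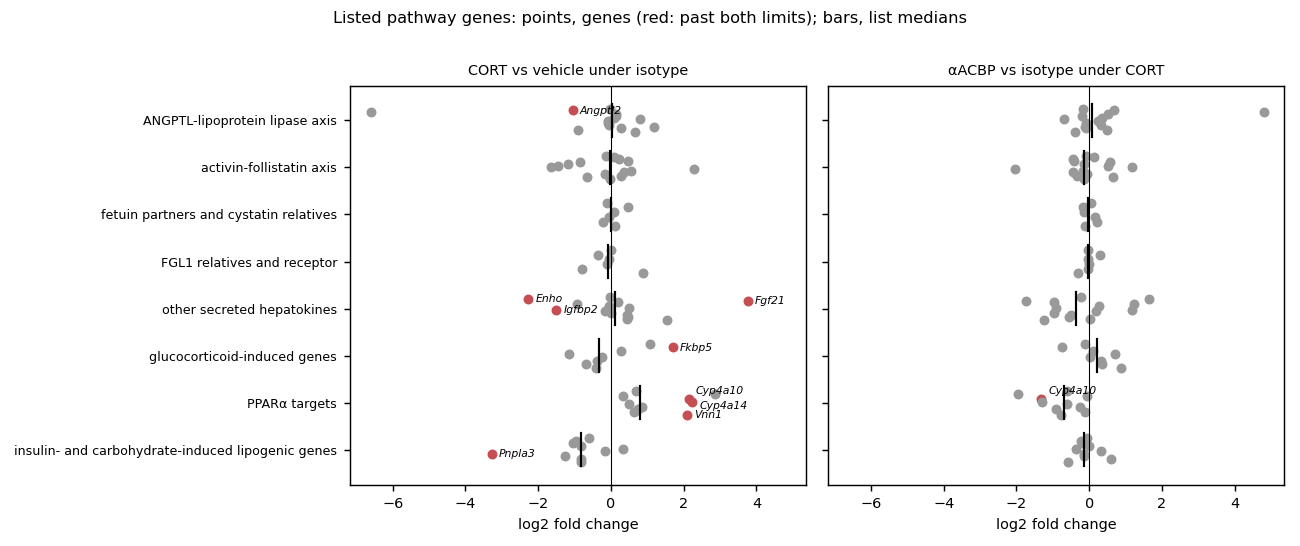
Fitted log2 fold change of each tested gene (points) in 8 lists related to the hepatokines, for CORT under isotype and for αACBP under CORT, with list medians as black bars and genes past both limits in red and named. PPARα targets lie to the right with CORT under isotype (median 0.80) and to the left with αACBP under CORT (median -0.70). Both panels share the Isotype + CORT livers, and CORT under αACBP, not shown, gave a median of 1.19. The outermost point of the first list is Angptl7, at 0 counts in all Isotype + CORT livers and with a median of 0 CPM in αACBP + Vehicle.

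The genes whose pattern over the 20 livers was most like that of Inhbe, among 12066 genes compared by Pearson's r of log2 CPM, were Mgll, the gene of monoacylglycerol lipase (r = 0.90), and Unc79 (r = 0.89). Within groups, after removing the group means, r was 0.70 and 0.64. Mgll stood at 81.5 ± 7.39 CPM in Isotype + Vehicle, 173 ± 51.7 in Isotype + CORT, 100 ± 24.3 in αACBP + Vehicle and 137 ± 27.2 in αACBP + CORT (SD, n = 5), the same order of groups as Inhbe. Unc79 reached the minimum mean of 1 CPM for this comparison only through the groups given CORT, so its likeness is a description of genes kept where they were high. It was at or below the floor in the average Isotype + Vehicle liver and at 2.69 ± 1.17 CPM in Isotype + CORT. The livers share their normalization, and these genes were taken as the highest of all compared.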

How the data were processed

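The livers were sequenced as paired reads. The authors aligned them with HISAT2, counted pairs per gene with HTSeq-count (union mode, non-unique features kept) and deposited raw counts, not normalized. The assembly is GRCm39 in the study's methods and mm10 in the submitters' processing notes, and the strand setting and annotation release are not given in the sources used here. The 9 members and the gene lists were chosen with earlier results of these data known.

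Counts were tested in R 4.3.3 with the quasi-likelihood test of edgeR 4.0.16 (TMM, robust, low-count filter), in 1 fit of the 4 groups of 5 livers without covariates, with Benjamini-Hochberg adjustment over 16071 of 48440 genes. Each sample is a different mouse, but nothing states that extraction was separate. Calls required an adjusted p no greater than 0.05 and a log2 fold change of at least 1 in either direction. The 6 comparisons share groups. Named genes were the 9 members, up to 4 called genes of each list with the smallest adjusted p, and the 2 genes most like each called member; Inhbb, Inhbc, Lpl, Apoc3, Pcsk6, Angptl7 and Manf were named after their values were seen. Exon lengths and overlaps came from GENCODE (GRCm39), used for CPM per kb, and 0 sequence words of 100 bases of the 9 members were shared with another gene. A further gene of the lists is not reported here. Depth was 14934926 to 20299999 counts per liver, and no same-group livers were alike enough to be 1 library. Alternatives were DESeq2's size factors, DESeq2 1.42.0, other low-count filters, library sizes without the 20 most abundant genes, only the groups compared, no fold limit, the replicate block and leaving livers out. The 2 livers with the most unaligned pairs were left out as an alternative chosen after seeing the data.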

Additional observations from a re-analysis of the deposited data

Results flagged for a closer look

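Single livers far from the other 4 of their group were sought by Dixon's ratio for each of the 9 genes in 4 groups, on the scales of CPM and log2 CPM, which made 72 tests of which 5 stood out, and chance alone gives about 5% of groups. On the log2 scale Ahsg was low in Isotype + Vehicle liver 4, at 3195 CPM against 6694 to 8481 CPM in the others. Inhba was at 0 CPM in Isotype + CORT liver 3, against 1.10 to 2.26 CPM, and Fst was low in that same liver, at 0.641 CPM against 3.21 to 4.31 CPM. On the CPM scale Angptl8 was high in Isotype + CORT liver 1, at 1497 CPM against 297 to 534 CPM, and Fst was high in αACBP + CORT liver 4, at 10.05 CPM against 0.972 to 3.04 CPM. For Ahsg, Isotype + Vehicle liver 4 is also a liver with a large share of unaligned pairs (4.84%), and the part of this in its value was not tested.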

How the results depend on the processing

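Inhbe with CORT under isotype was called in all 8 alternatives (log2 fold change 2.13 to 2.30, adjusted p 1.2e-09 to 0.00347) and with each of the 20 livers left out (2.07 to 2.41). Of 50 gene values checked, 30 kept direction and side of the limits throughout and 7 reversed at least once, all 7 of them below the limits. The CORT calls under isotype of Angptl2 and Fgf21 were lost with no filter (adjusted p 0.0546 and 0.0652) and without the 2 livers with the most unaligned pairs (0.0640 and 0.0925), and that of Angptl2 also with only the groups compared (0.0762).

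Angptl6 with αACBP under CORT was -0.00378 with DESeq2's size factors and with DESeq2's Wald test and -0.00429 with a minimum of 10 counts. With the replicate block, Fst with αACBP under CORT was -0.21 and Acly in αACBP + CORT against Isotype + Vehicle had an adjusted p of 0.0625, and no other call of a named gene changed; the same-numbered livers are different mice, their correlations ran from -0.096 to 0.0856 over 30 pairs, and 3 of 20 livers correlated best with their own number. Counts of genes called for the interaction were 23 in the fit reported and 35, 187, 53, 60 and 41 with DESeq2's size factors, DESeq2's Wald test, no filter, a minimum of 10 counts and library sizes without the 20 most abundant genes; this result was not run on the compared groups alone. DESeq2's Wald test called 527, 211, 112 and 56 genes where edgeR called 312 (CORT under isotype), 96 (αACBP under CORT), 34 (CORT under αACBP) and 11 (αACBP + CORT against Isotype + Vehicle). With only the groups compared, 27 were called for αACBP under CORT and 62 for αACBP + CORT against Isotype + Vehicle. Without the fold limit 514, 154 and 826 were called for CORT under isotype, αACBP under CORT and αACBP under vehicle. Without the 2 livers with the most unaligned pairs, 7 were called for CORT under αACBP.

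Of the 9 members, 1 (Inhbe) was called for CORT under αACBP by DESeq2 (adjusted p = 0.00482) and with a minimum of 10 counts (0.0488), and 0 for αACBP + CORT against Isotype + Vehicle with no filter (Inhbe 0.0577) and without those 2 livers (0.0898). Leaving out 1 liver gave 205 to 421 genes called for CORT under isotype, 52 to 191 for αACBP under CORT, 5 to 153 for CORT under αACBP, 87 to 343 for αACBP under vehicle, 1 to 23 for αACBP + CORT against Isotype + Vehicle and 6 to 101 for the interaction, and 0 to 1 members called for CORT under αACBP and for αACBP + CORT against Isotype + Vehicle. Over livers left out, CORT under isotype ran from -0.27 to 0.0204 for Ahsg, -0.22 to 0.33 for Fst and -0.0147 to 0.26 for Fgl1, and αACBP under CORT from -0.13 to 0.17 for Angptl4, -0.18 to 0.23 for Angptl6, -0.22 to 0.0441 for Ahsg and -0.97 to 0.29 for Fst. The causes were not tested. Depth leaves levels under the floor of 3 counts undetermined, as for Inhba, Inhbb and Angptl7 in livers where they had 0 counts.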
